A study of Mus musculus with 6 samples.

Results

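STAT transcription factors carry signals from cytokine receptors to the nucleus, and the 6 family members described here, Stat2, Stat3, Stat4, Stat5a, Stat5b and Stat6, were taken by gene symbol from the 39179 genes counted in mouse regulatory T cell cultures. The starting cells were naive splenic CD4+ T cells of wild-type mice (C57BL/6, aged 6 weeks). For 3 days they were differentiated into regulatory T cells (Tregs) with coated anti-CD3 (2 µg/ml, with the unit's prefix garbled in the labels), anti-CD28 (1 µg/ml), TGFβ1 (5 ng/ml) and IL-2 (40 ng/ml). DEL-1, the product of Edil3, is secreted and binds integrins. Joined to an antibody Fc part, as DEL-1-Fc, it was present for 3 of the libraries, and Fc alone, as control, for the other 3. Both arms therefore shared the strain, the age, the TGFβ1 and the added IL-2. The comparison asks what DEL-1-Fc does to gene expression in Tregs made in culture. Whether replicates are separate cultures or animals is not in the labels, so each p-value reflects the spread among these 6 libraries, and that spread may be technical.

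In cytokine signalling, a ligand brings together receptor chains whose attached JAK kinases phosphorylate a STAT on a tyrosine, and the STAT then pairs through its SH2 domain, enters the nucleus and binds DNA. T cells use the members for different cytokines: STAT5A and STAT5B act downstream of IL-2 and help to induce and keep Foxp3, STAT3 acts downstream of IL-6, IL-21 and IL-10 and promotes Th17 cells, STAT4 acts downstream of IL-12 in Th1 cells, STAT6 acts downstream of IL-4 in Th2 cells, and STAT2 joins IRF9 in the complex that answers type I interferon. STAT mRNA levels are one layer of this control, and phosphorylation, which switches the proteins on, was not measured.

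The libraries held 33364166, 55236703 and 58075983 counts in DEL-1-Fc and 57391981, 61967687 and 55318383 counts in Fc, and the shallowest was DEL-1-Fc replicate 1. That library also stood apart from the rest of its group in a principal component analysis of log2(CPM + 1), where CPM is counts per 1000000, on the first component (49.1% of the variance), which separated the groups, and on the second (23.0%). T cell and Treg markers were high in every library: Foxp3, the defining factor of Tregs, averaged 523.3 CPM in DEL-1-Fc and 359.5 in Fc, while Ctla4, a Treg checkpoint receptor, averaged 424.5 CPM in DEL-1-Fc and 524.1 in Fc, each with no overlap between the groups. The other Treg markers overlapped between the groups, with means in DEL-1-Fc and Fc of 340.7 and 380.0 CPM for Tnfrsf18, 24.9 and 26.8 CPM for Ikzf2 and 2552 and 2463 CPM for Il2ra, which makes up most of the sum of the 5 (3601 to 4108 and 3564 to 3952 CPM). Markers of other cells were low: the 3 NK cell markers summed to at most 0.0177 CPM in DEL-1-Fc and 0.0364 in Fc, the 5 myeloid markers to 0.335 to 0.658 and 0.164 to 0.457 CPM, and the 4 B cell markers to 4.84 to 5.55 and 4.32 to 5.22 CPM, while Clec9a, Ncr1 and Hbb-bs were at 0 in all libraries. The 2 CD8 markers summed to 11.9 to 12.8 CPM in DEL-1-Fc and 10.1 to 10.4 in Fc, and the 4 dendritic cell markers, nearly all of it Zbtb46, to 6.46 to 7.04 and 8.87 to 9.02 CPM. The 5 T cell markers summed to 2022 to 2322 CPM in DEL-1-Fc and 1954 to 2038 in Fc, and the 3 erythroid markers to 0.0506 to 0.183 and 0 to 0.0163 CPM. The part of these small differences in the results was not tested.

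Stat5b, Stat5a and Stat3 lie side by side on chromosome 11 (GRCm38). Stat5b (ENSMUSG00000020919) runs on the minus strand from 100780731 to 100850724, Stat5a (ENSMUSG00000004043) on the plus strand from 100859351 to 100885169, and Stat3 (ENSMUSG00000004040) on the minus strand from 100885098 to 100939540. Stat5b and Stat5a are 8626 bases apart, head to head, and the ends of Stat5a and Stat3 overlap by 72 bases, which is 1.01% of the exon bases of Stat5a and 0.756% of those of Stat3. Stat6 (ENSMUSG00000002147, 127642986 to 127660957) and Stat2 (ENSMUSG00000040033, 128270559 to 128292849) are both on the plus strand of chromosome 10, 609601 bases apart. Stat4 (ENSMUSG00000062939) spans 51987148 to 52107189 on the plus strand of chromosome 1. There the non-coding transcript Gm28177 covers 26.7% of the exon bases of Stat4 on the same strand. Gm28177 is absent from the deposited counts, so reads from it had no count of their own. Whether such reads were counted for Stat4 was not tested. Stat6 ends in 40 bases shared with Nab2 on the other strand, a gene that did not pass the test (log2 fold change -0.17, edgeR adjusted p = 0.188).

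Stat5a and Stat5b are close copies of each other, and this bears on how well their reads can be told apart. Their longest annotated coding sequences, of 2391 and 2358 bases, were identical at 90.9% of 2291 aligned bases, and 15.6% of the 31-base words of the longest Stat5a transcript also occur in Stat5b (16.1% the other way). The longest stretch without a difference is 324 bases long, bases 571 to 894 of both coding sequences on chromosome 11, and a short read from within it has 2 equally good origins. Its first 150 bases show such a stretch:
Stat5a and Stat5b, coding bases 571 to 720: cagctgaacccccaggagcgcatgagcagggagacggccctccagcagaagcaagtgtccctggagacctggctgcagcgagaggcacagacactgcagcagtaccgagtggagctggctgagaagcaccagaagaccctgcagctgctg
The other pair of members with shared words was Stat3 and Stat5a, through the bases where they overlap (0.699% of the words of Stat3). As a split between members, the Stat5a and Stat5b values below are therefore less certain than the others. Outside the family, Stat4 shares a larger part of its words with Gm28177, the transcript without a count, than Stat5a and Stat5b share. Stat4 is therefore not shown to be more certain than Stat5a and Stat5b. How reads with several matches were counted is not given in the sources used here.

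Promoter windows from RefSeq (250 bases before to 50 bases after each annotated start, GRCm38.p6) were available for all 6 genes, 9 windows in all, and were searched on both strands for motifs that STAT proteins are known to bind. The GAS motif, TTCNNNGAA, was in 0 of the 9 windows (8.3% of all 32851 windows of this length hold it). The form with a longer spacer, TTC and GAA with 4 bases between them, was in 1 window, that of Stat2 (6.95% of all windows). The ISRE core, GAAA and GAAA with 2 bases between them, bound by the STAT2 and IRF9 complex and by other interferon regulatory factors, was in 2 windows, that of Stat2 and that of the downstream start of Stat4 (3.44% of all windows). The genes shown are Stat2 and Stat4, which had the largest falls of the 6 genes, and Stat6, which did not pass the test. For Stat4 only the downstream window, which holds a match, is shown. The window at the upstream start of Stat4, chr1:51986898-51987197, held none of these motifs. Capitals mark matches to these motifs.
Stat2, chr10:128270248-128270547, plus strand: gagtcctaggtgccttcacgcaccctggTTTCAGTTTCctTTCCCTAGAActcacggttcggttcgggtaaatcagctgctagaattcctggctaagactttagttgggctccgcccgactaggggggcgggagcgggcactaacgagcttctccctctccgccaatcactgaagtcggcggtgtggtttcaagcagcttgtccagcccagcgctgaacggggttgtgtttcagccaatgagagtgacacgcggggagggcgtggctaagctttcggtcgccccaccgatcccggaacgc
Stat4, chr1:52007990-52008289, plus strand: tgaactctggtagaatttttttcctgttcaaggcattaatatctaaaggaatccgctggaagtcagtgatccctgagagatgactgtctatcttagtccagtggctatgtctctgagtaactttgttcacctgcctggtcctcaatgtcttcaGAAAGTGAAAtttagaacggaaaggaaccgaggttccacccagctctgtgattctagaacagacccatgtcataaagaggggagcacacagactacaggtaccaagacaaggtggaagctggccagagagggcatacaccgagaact
Stat6, chr10:127642736-127643035, plus strand: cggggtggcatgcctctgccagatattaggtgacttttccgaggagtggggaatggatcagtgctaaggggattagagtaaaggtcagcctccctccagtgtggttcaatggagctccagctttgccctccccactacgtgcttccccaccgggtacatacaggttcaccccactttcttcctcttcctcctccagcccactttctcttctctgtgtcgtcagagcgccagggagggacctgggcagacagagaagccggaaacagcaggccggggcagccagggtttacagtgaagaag
The ISRE core of Stat2 (TTTCAGTTTC) reads on the opposite strand and begins at -222 from the RefSeq start site. The longer-spaced GAS match (TTCCCTAGAA) begins at -210, without overlap between them. The RefSeq start differs from the gene start given above, 128270559, and the whole Stat2 window lies before the latter. The ISRE core of Stat4 (GAAAGTGAAA) begins at -97 from the downstream start. A match describes the letters in this window and not a bound site.

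Of the 6 Stat genes 5, all but Stat6, were lower in DEL-1-Fc at an edgeR adjusted p under 0.05, where 6.22% of the 14928 genes tested were called lower and 12.6% in either direction. Their folds were modest, between 1.26 and 1.53. In all 5 the 3 DEL-1-Fc libraries lay below all 3 Fc libraries, which held in this direction for 17.5% of all genes tested and in either direction for 34.8%. The 6 genes were chosen with earlier results of these data known, so their number cannot be tested against these percentages. In cultures measured in bulk, fewer cells with a transcript and less of it in each cell cannot be told apart.

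Stat2, the STAT of the type I interferon response, had the largest fold change of the 6 genes. It measured 125.2, 146.5 and 143.5 CPM in DEL-1-Fc, against 199.1, 219.6 and 218.2 in Fc. The groups were well apart, and replicate 1 was the lowest library of each. The fall was 1.53-fold (log2 fold change -0.62, SE 0.0771, edgeR adjusted p = 0.0012).

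Stat4, the transducer of IL-12, was the lowest member, in CPM and per length, and had the smallest p-value. It measured 81.2, 78.3 and 85.2 CPM in DEL-1-Fc, against 123.8, 123.3 and 121.8 in Fc. The Fc libraries were nearly equal, with a coefficient of variation of 0.865%, against 4.24% in DEL-1-Fc. Stat4 fell 1.51-fold (log2 fold change -0.59, SE 0.0578, edgeR adjusted p = 0.00037), which placed it at rank 127 by p among the 14928 genes.

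Stat3, the transducer of IL-6, IL-21 and IL-10, stood at 337.9, 362.9 and 354.3 CPM in DEL-1-Fc, against 472.2, 485.0 and 471.2 in Fc. The spread within each group was small beside the gap between the groups. The fall was 1.35-fold (log2 fold change -0.44, SE 0.0614, edgeR adjusted p = 0.00218).

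The STAT5 pair, which transmits the IL-2 that was added to both arms, had the smallest fold changes among the 5 genes that fell. Stat5a measured 265.2, 291.6 and 287.2 CPM in DEL-1-Fc, against 372.9, 365.5 and 365.8 in Fc, a fall of 1.31-fold (log2 fold change -0.39, SE 0.0629, edgeR adjusted p = 0.00447). Stat5b measured 201.2, 234.2 and 217.4 CPM in DEL-1-Fc, against 273.8, 279.6 and 269.8 in Fc. Its groups did not overlap, but its DEL-1-Fc libraries were spread more widely than those of Stat5a, with a coefficient of variation of 7.57% against 5.03%. Stat5b fell 1.26-fold (log2 fold change -0.33, SE 0.0696, edgeR adjusted p = 0.0147). This call was the only one of the 5 that depended on single libraries: it was lost without Fc replicate 1, 2 or 3 (edgeR adjusted p = 0.0744, 0.079 and 0.0614), with log2 fold changes of -0.34, -0.32 and -0.35.

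Stat6, the transducer of IL-4, was the exception. It measured 343.5, 365.3 and 356.5 CPM in DEL-1-Fc, against 364.5, 367.7 and 361.7 in Fc. The groups overlapped, since DEL-1-Fc replicate 2 exceeded 2 of the 3 Fc libraries. The log2 fold change was -0.04 (SE 0.0591, edgeR adjusted p = 0.723), with a 95% interval of -0.17 to 0.10. That interval does not reach the fold changes measured for the other 5 genes.

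**Figure D1:**
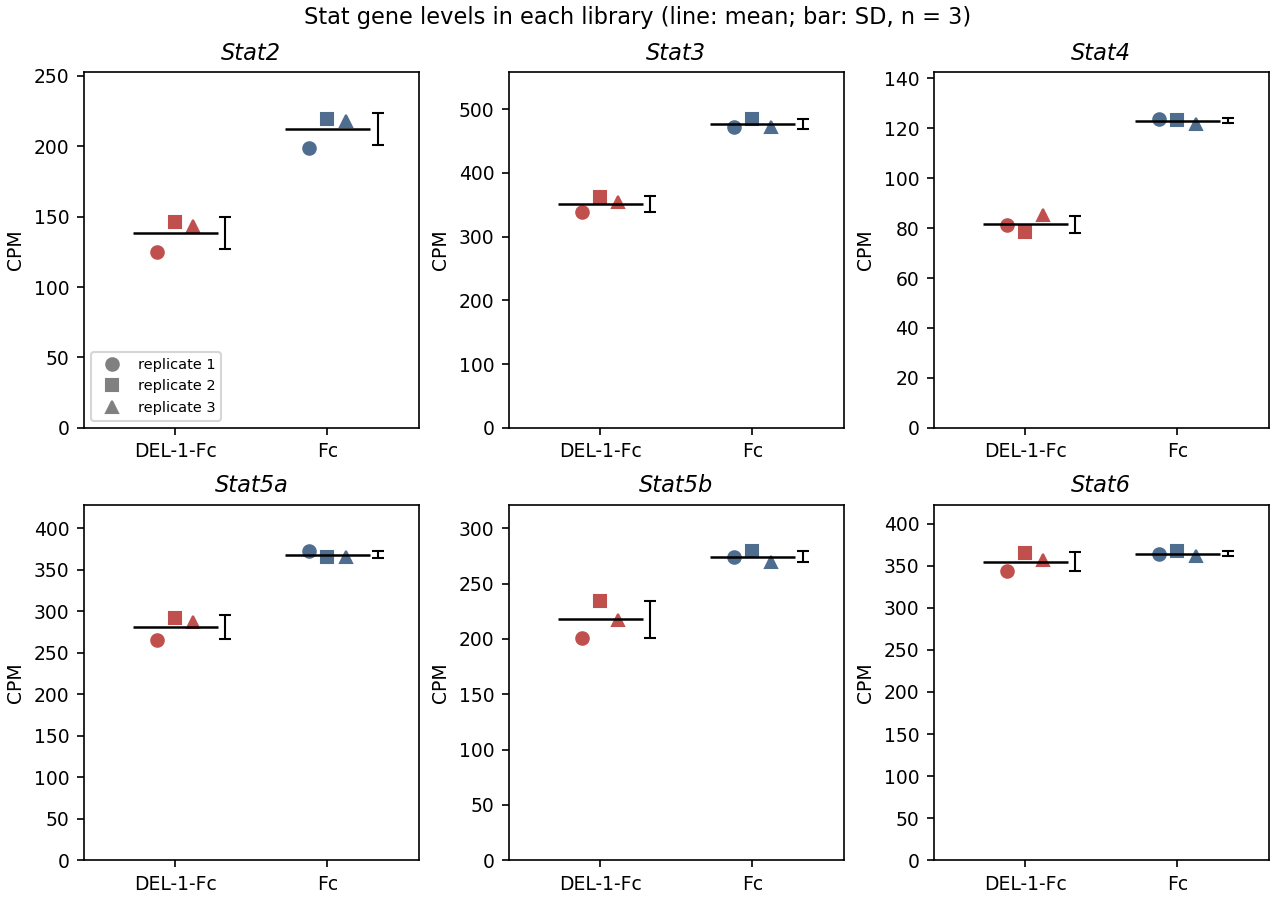
CPM (counts per 1000000, TMM-scaled) of the 6 Stat genes in each library, with DEL-1-Fc left of Fc, the mean as a line, the SD as a bar (n = 3) and replicate numbers as symbols. Stat2, Stat3, Stat4, Stat5a and Stat5b lie lower in all 3 DEL-1-Fc libraries, while Stat6 overlaps at 343.5 to 365.3 CPM in DEL-1-Fc and 361.7 to 367.7 in Fc.

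DEL-1-Fc replicate 1, the shallow library, was the lowest DEL-1-Fc library for Stat2, Stat3, Stat5a, Stat5b and Stat6, and replicate 2 was the lowest for Stat4. Without replicate 1 the 5 falls were still called, with log2 fold changes of -0.55 for Stat2, -0.41 for Stat3, -0.59 for Stat4, -0.35 for Stat5a and -0.28 for Stat5b, and that of Stat6 was -0.01. Within Fc the members differed between libraries by a coefficient of variation of 0.83% (Stat6) to 5.4% (Stat2), and within DEL-1-Fc by 3.09% (Stat6) to 8.32% (Stat2).

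**Figure D2:**
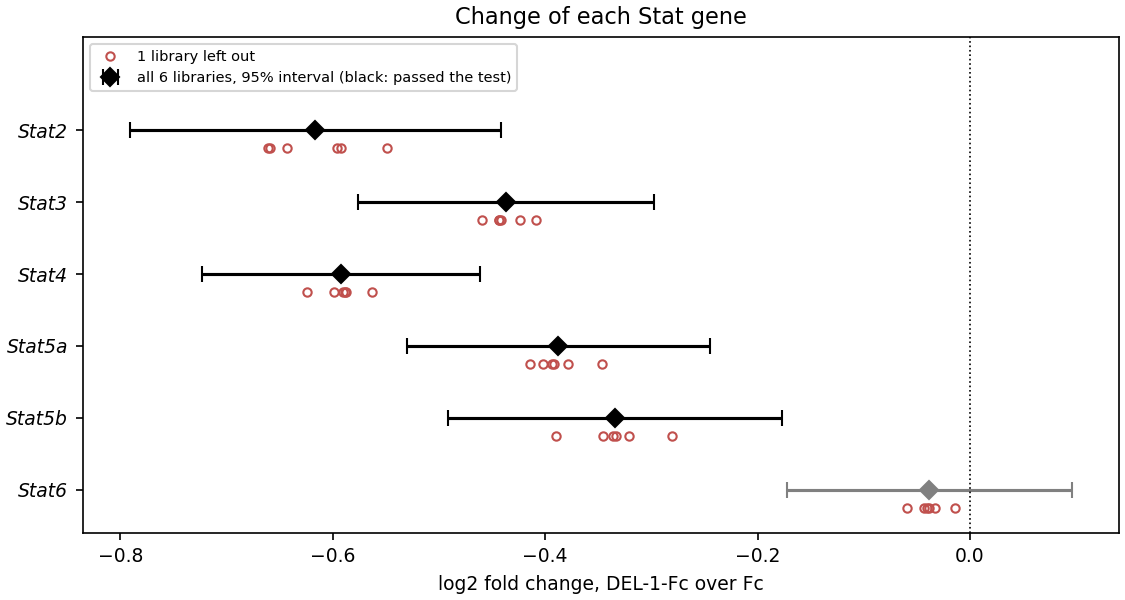
Log2 fold change of each Stat gene, DEL-1-Fc over Fc, as a diamond with its 95% interval, and the values with 1 library left out as open circles; the axis gives log2 units. The intervals of Stat2, Stat3, Stat4, Stat5a and Stat5b lie below 0, from -0.79 at the lowest to -0.18 at the highest, and that of Stat6 includes 0.

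Scaled by the length of all exons, the 6 genes fell into 3 tiers. Stat6 was highest, at 80.7 ± 2.49 CPM per kb of exon in DEL-1-Fc and 82.8 ± 0.687 in Fc (SD, n = 3). Stat5a (39.4 ± 1.98 in DEL-1-Fc and 51.6 ± 0.588 in Fc), Stat5b (39.3 ± 2.97 and 49.5 ± 0.89) and Stat3 (36.9 ± 1.34 and 49.98 ± 0.81) formed a middle tier. Within that tier Stat5a and Stat5b differed by less than their spread in DEL-1-Fc, and Stat3 and Stat5b differed by less than theirs in Fc. Stat2 (23.4 ± 1.94 in DEL-1-Fc and 35.8 ± 1.93 in Fc) and Stat4 (21.1 ± 0.892 and 31.8 ± 0.275) were lowest. These tiers depend on the length used. With the longest transcript of each gene in place of all its exons, the middle tier came apart. Stat5a was at 82.0 CPM per kb over the 6 libraries, Stat3 at 68.5 and Stat5b at 47.2. Stat6 stayed first (95.3), with Stat2 (39.9) and Stat4 (34.3) last. In Fc on this scale Stat5a (93.0) came near Stat6 (96.6), and Stat5b (52.6) near Stat2 (48.3). In DEL-1-Fc Stat5a (71.1) stayed further below Stat6 (94.1). By CPM all 6 were well expressed, between the 83.3 and the 97.4 percentile of the mean levels of the genes tested.

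**Figure D3:**
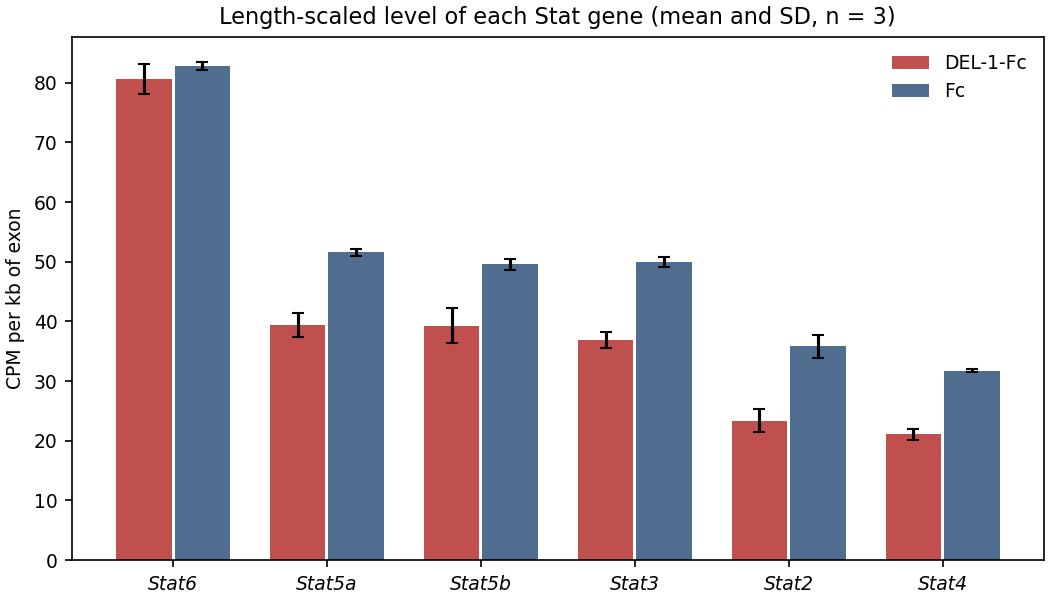
CPM per kb of exon for the 6 Stat genes, DEL-1-Fc left of Fc in each pair, as bars with the mean and SD (n = 3), ordered by the mean of all libraries. Stat6 is the highest at 80.7 in DEL-1-Fc and 82.8 in Fc, and Stat4 the lowest at 21.1 in DEL-1-Fc and 31.8 in Fc.

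Summed over the 6 genes, Stat mRNA came to 1354, 1479 and 1444 CPM in DEL-1-Fc, against 1806, 1841 and 1808 in Fc. The mean sum was 21.6% lower in DEL-1-Fc, or 26.4% lower without Stat6. The sums are given as a description, since the genes were tested singly. They, and the shares of them, cover these 6 genes alone and not every Stat gene.

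Stat6 held a larger share of that total in all 3 DEL-1-Fc libraries than in any Fc library. Stat6 made up 25.4%, 24.7% and 24.7% of the summed Stat CPM in DEL-1-Fc, against 20.2%, 20.0% and 20.0% in Fc, so the groups did not overlap and the difference was 4.87 percentage points. In DEL-1-Fc Stat6 was level with Stat3 at the top (24.9 ± 0.388% for Stat6 and 24.7 ± 0.238% for Stat3, SD, n = 3). In Fc Stat3 alone was at the top (26.2 ± 0.151%), and Stat6 (20.1 ± 0.11%) was level with Stat5a. Stat2 held 9.7 ± 0.39% in DEL-1-Fc and 11.7 ± 0.567% in Fc, and Stat4 5.73 ± 0.378% in DEL-1-Fc and 6.76 ± 0.082% in Fc, again with groups that did not overlap. Stat5a (19.7 ± 0.152% in DEL-1-Fc and 20.2 ± 0.395% in Fc) and Stat5b (15.2 ± 0.517% and 15.1 ± 0.148%) differed by about their spread or less. In exact two-sided permutation tests over the libraries, the shares of Stat2, Stat3, Stat4 and Stat6 reached p = 0.1, the smallest that 3 against 3 can give (0.15 after Benjamini-Hochberg adjustment over the 6 genes), so no share could pass 0.05. Shares of a fixed total are not independent of each other.

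**Figure D4:**
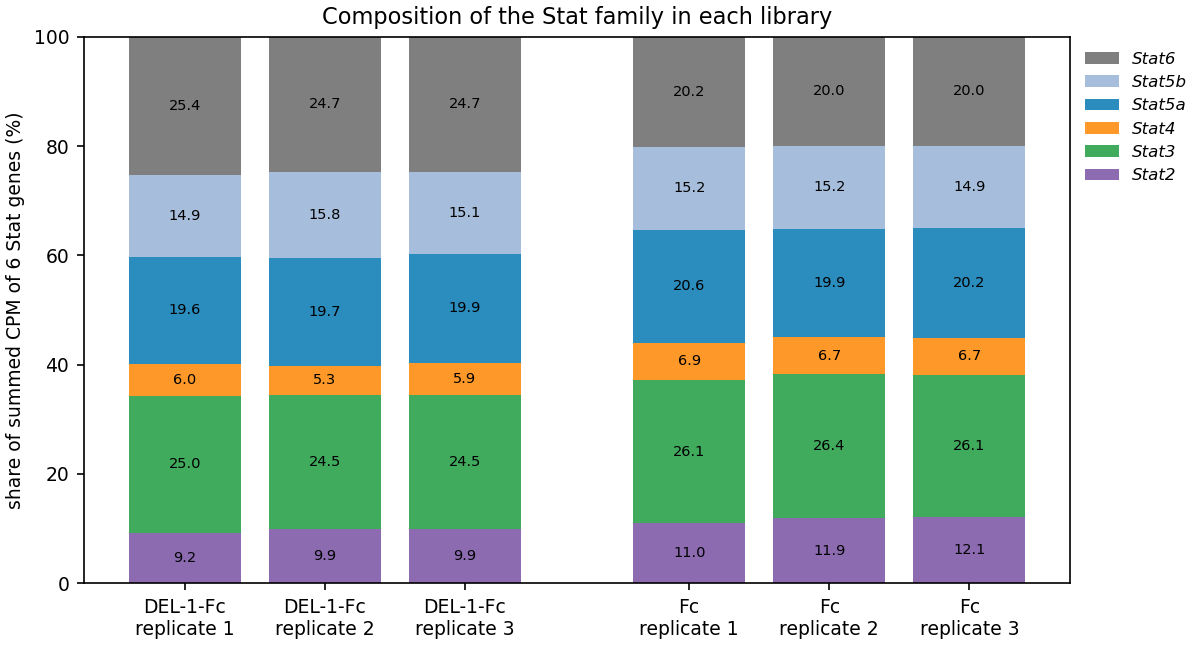
Share of the summed CPM of the 6 Stat genes held by each gene, in percent, as stacked bars for the 3 DEL-1-Fc libraries on the left and the 3 Fc libraries on the right. The Stat6 segment is 24.7 to 25.4% in DEL-1-Fc and 20.0 to 20.2% in Fc.

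Ratios of 2 members within a library do not depend on how libraries were scaled. The log2 ratio of Stat4 to Stat6 was -2.08, -2.22 and -2.06 in DEL-1-Fc, against -1.56, -1.58 and -1.57 in Fc, a difference of -0.55 with no overlap (exact two-sided permutation p = 0.1, adjusted p = 0.2 over 4 ratios). Stat3 over Stat5b was 0.69 ± 0.0584 in DEL-1-Fc and 0.80 ± 0.0092 in Fc on the log2 scale (SD, n = 3; difference -0.10, exact permutation p = 0.1, adjusted p = 0.2). The ratio of the STAT5 pair, Stat5a over Stat5b, was 0.40, 0.32 and 0.40 in DEL-1-Fc, against 0.45, 0.39 and 0.44 in Fc, and the groups overlapped (difference -0.05, exact permutation p = 0.3, adjusted p = 0.3). Stat3 over its overlapping neighbour Stat5a also overlapped between the groups (difference -0.05, exact permutation p = 0.2, adjusted p = 0.267).

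The genes around the STATs were followed through 13 lists of 126 genes, of which 115 were tested. Counting each gene once, 17 rose, 38 fell and 60 did not pass, with a median log2 fold change of -0.15, where the median of all genes tested was 0.01 and 6.4% were called higher and 6.22% lower. Leaving out any one library gave 12 to 19 higher and 28 to 45 lower. A gene could stand in several lists. The lists were chosen with earlier results of these data known. The counts are therefore a description and cannot be read as an excess over all genes tested.

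**Figure D5:**
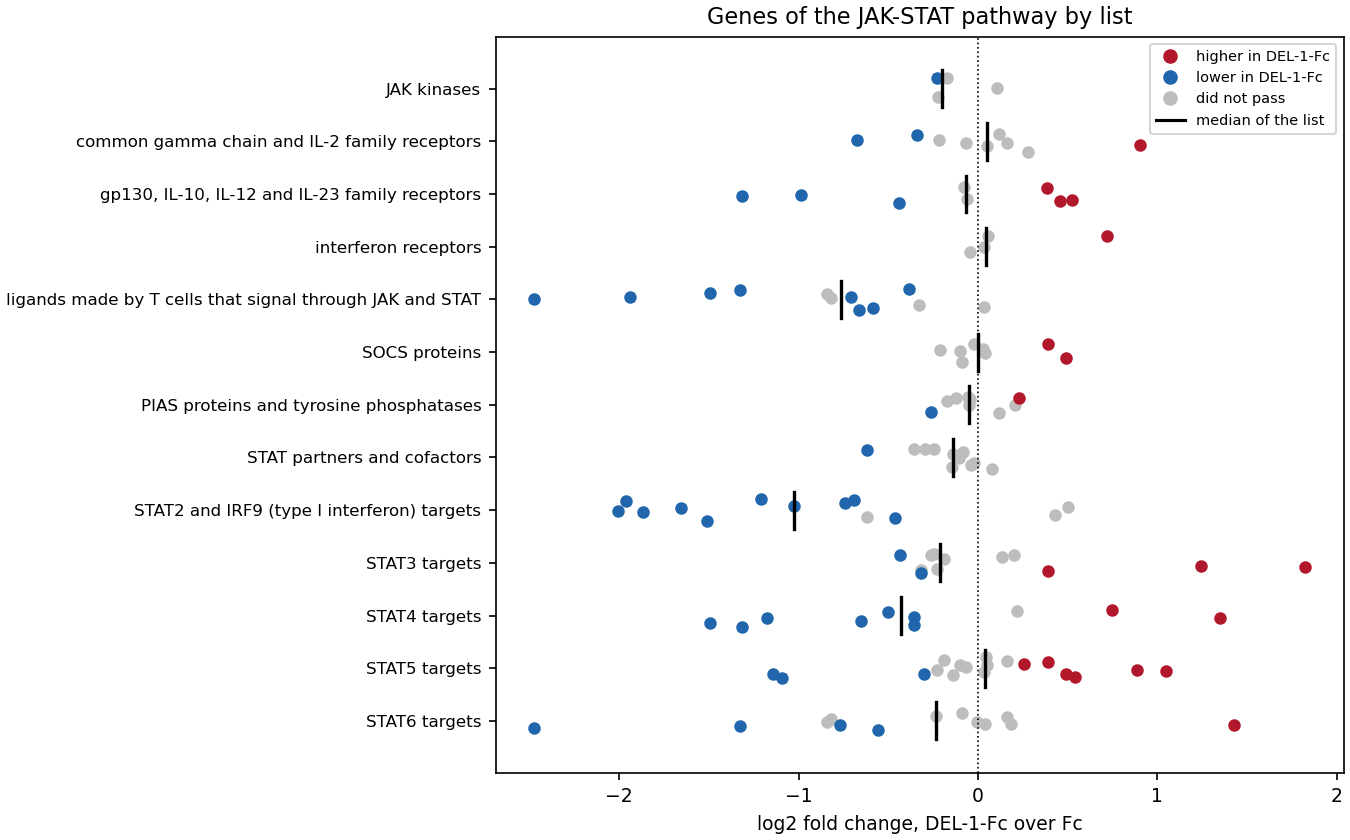
Log2 fold change, DEL-1-Fc over Fc, of every tested gene of 13 lists around the STATs, 1 point per gene, coloured by whether it passed the edgeR test, with the median of each list as a black line. The list of type I interferon targets has the lowest median, -1.03, and the SOCS list lies near 0.

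Upstream, 1 of the 4 JAK kinases fell, and none had a log2 fold change as large as that of any of the 5 Stat genes that fell. Tyk2, a kinase of the type I interferon and IL-12 receptors, fell to 62.9 ± 3.6 CPM in DEL-1-Fc, against 73.7 ± 0.535 in Fc (SD, n = 3; log2 fold change -0.23, edgeR adjusted p = 0.0463). The call was near the threshold and was lost under 7 of 14 alternative settings. Jak1, used by many receptors of the class, measured 335.5 ± 28.9 CPM in DEL-1-Fc and 312.3 ± 3.19 in Fc and did not pass (0.10, adjusted p = 0.408). Jak2 (log2 fold change -0.18) and Jak3, the partner of the common gamma chain (-0.23), did not pass either. Jak1 met the threshold when DEL-1-Fc replicate 1 was left out (0.17, edgeR adjusted p = 0.0377), and Jak3 with DESeq2 (adjusted p = 0.0465).

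Receptors moved in both directions. Of 8 tested chains of the gp130, IL-10, IL-12 and IL-23 families, 3 rose and 3 fell. The risers were Il6ra, the IL-6 receptor chain (51.2 ± 6.58 CPM in DEL-1-Fc and 37.3 ± 2.31 in Fc; log2 fold change 0.46), Il6st, the shared gp130 chain (0.52), and Il27ra, a chain of the IL-27 receptor (0.38). The Il6ra call was lost without Fc replicate 1 or 3, where the edgeR adjusted p was at most 0.086. The fallers were both chains of the IL-12 receptor that feeds STAT4 and one that feeds STAT3: Il12rb2 fell to 125.7 ± 29.2 CPM in DEL-1-Fc, against 312.6 ± 21.4 in Fc (SD, n = 3; -1.31, edgeR adjusted p = 0.00256), Il12rb1 fell by 0.44 on the log2 scale, and Il10ra fell by 0.98. Serbp1 covers 40.0% of the exon bases of Il12rb2, whose reads are uncertain there.

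Among 9 tested receptors of the common gamma chain and IL-2 family, 1 rose and 2 fell. Il21r, whose signal goes mainly to STAT3, fell (log2 fold change -0.68) to 225.5 ± 3.67 CPM in DEL-1-Fc, against 360.5 ± 12.5 in Fc, and Il15ra fell (-0.34; lost without any one Fc replicate). Il9r, the IL-9 receptor, rose at a low level, with 2.07 ± 0.202 CPM in DEL-1-Fc and 1.1 ± 0.00987 in Fc (0.90). Il2rb, the IL-2 receptor β chain that docks STAT5, measured 721.5 ± 35.4 CPM in DEL-1-Fc and 756.5 ± 35.3 in Fc and did not pass (-0.07, adjusted p = 0.58). Of 4 tested interferon receptor chains, Ifngr1 rose (0.72), and neither chain of the type I receptor, Ifnar1 (-0.04) or Ifnar2 (0.03), passed.

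Ligands that signal through JAKs and STATs were lower where they changed: of 12 tested, 0 rose and 8 fell, with a median log2 fold change of -0.76. DESeq2 and limma-voom also called none higher, nor did any of the 12 reach an unadjusted p under 0.05 in the higher direction. Csf2, GM-CSF, which signals to STAT5, fell to 26.2 ± 0.527 CPM in DEL-1-Fc, against 100.4 ± 7.76 in Fc (SD, n = 3; -1.94, edgeR adjusted p = 1.33e-05). Il13, which signals to STAT6, fell by 2.47 on the log2 scale, Ifng by 1.49 and Lif, a gp130 ligand, by 0.71. Il10 and Il6 had counts too low to test. A neighbouring non-coding gene covers 25.9% of the exon bases of Ifng.

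Among inhibitors, 2 of 8 SOCS genes rose and none fell by edgeR, while DESeq2 called 1 lower (Socs7, DESeq2 adjusted p = 0.0218; unadjusted p = 0.0073 by the edgeR quasi-likelihood test). Socs2, a STAT5 target and feedback inhibitor, rose to 449.6 ± 21.2 CPM in DEL-1-Fc, against 319.8 ± 16.0 in Fc (SD, n = 3; log2 fold change 0.49, edgeR adjusted p = 0.00213). Socs3, which blocks gp130 and so STAT3, measured 42.7, 40.8 and 35.6 CPM in DEL-1-Fc, against 28.5, 31.8 and 30.4 in Fc (0.39, adjusted p = 0.0169), and its call was lost without Fc replicate 1 or 3. Cish, the most direct STAT5 feedback gene, measured 412.4 ± 18.9 CPM in DEL-1-Fc and 442.3 ± 3.76 in Fc and did not pass (-0.10, adjusted p = 0.343), nor did Socs1 (0.04). Of 9 PIAS proteins and phosphatases, Pias1 rose (0.23) and Ptpn6, the phosphatase SHP-1, fell (-0.26), and both calls were lost without any one Fc replicate, that of Pias1 in 4 other settings as well. Of 11 partners and cofactors, Pml fell (-0.62) and none rose by edgeR, DESeq2 or limma-voom, with 0 higher at an unadjusted p under 0.05. Irf9, the DNA-binding partner of STAT2, measured 104.4 ± 4.64 CPM in DEL-1-Fc and 107.3 ± 0.932 in Fc and did not pass (-0.04, adjusted p = 0.703), although Stat2 itself fell.

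Of the target lists, that of STAT2 and IRF9 held the most calls in 1 direction. Of its 13 members 10 fell, 0 rose by edgeR and 3 did not pass, with a median log2 fold change of -1.03. Ifi44 fell to 7.39 ± 0.811 CPM in DEL-1-Fc, against 21.1 ± 2.32 in Fc (SD, n = 3; -1.51), Usp18, an interferon feedback protease, fell by 1.65 on the log2 scale, and the antiviral genes Rsad2 (-1.96) and Oasl1 (-1.87) fell as well. DESeq2 called 11 lower and 1 higher. Ifit3 (0.43) and Rtp4 (0.50) lay above 0 without passing, although Rtp4 had an unadjusted p = 0.0137 and was called higher by DESeq2. Ifit3 shares 61.8% of its 31-base words with other genes.

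The targets of STAT4 fell in 7 of 10 cases and rose in 2, with a median of -0.43. Leaving out 1 library gave 5 to 7 lower and 2 to 3 higher, and DESeq2 also called Ets1 higher. Tbx21, the Th1 regulator T-bet, fell (log2 fold change -1.18), as did Ifng and Il12rb2, while the IL-18 receptor chains Il18r1 (1.35) and Il18rap (0.75) rose. The STAT3 targets were mixed, with 3 of 12 higher and 2 lower, and a median of -0.21. Il17f, a Th17 cytokine, rose by 1.82 on the log2 scale, while Myc (-0.32) and Hif1a (-0.43) fell in calls that were lost without any one Fc replicate. The Myc call was also lost without DEL-1-Fc replicate 3, and that of Hif1a with library sizes alone. The number of STAT3 targets called lower was 0 to 5 with 1 library left out.

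STAT5 targets, 18 tested, had 6 higher and 3 lower, and a median of 0.04. No omission of a library reached 6: 3 to 5 were called higher and 2 to 4 lower. The rise of Bcl2 (log2 fold change 0.25) lost its call under 8 of 14 alternative settings. Gzmb, the killing enzyme granzyme B (log2 fold change -1.14), and Cdkn1a, a cell cycle inhibitor (-1.09), fell and Prf1, the pore protein perforin (1.05), rose, as did Bcl6 (0.89), a gene that STAT5 is known to repress. Foxp3 (0.54) and Socs2 were among the risers too, and the Foxp3 call was lost without DEL-1-Fc replicate 1 or Fc replicate 1 or 3. Other genes cover 31.5% of the exon bases of Foxp3, whose reads are uncertain there. STAT6 targets, 13 tested, had 1 higher and 4 lower, with a median of -0.24. Gata3, the Th2 regulator (-0.56), Il13 and the chemokine receptor Ccr8 (-0.77) fell and Maf rose (1.43), while Stat6 itself did not pass. These lists draw on general knowledge of T cells but were chosen with earlier results of these data known. A target can answer to several STATs.

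Genes whose levels across the 6 libraries came closest to each Stat gene were found by the root mean square difference of log2 CPM, each gene centred on its own mean, among 9194 protein-coding genes with a mean of at least 5 CPM, the Stat family left out. For Stat2 these were Cgas and Ifih1, sensors of cytosolic nucleic acids, at 0.0211 and 0.0323 log2 units. For Stat4 they were Inpp5b (0.0301) and Icam1 (0.0355), and for Stat3 Epb41 (0.0334) and Edem1 (0.0346). Stat5a came closest to Uhrf1bp1 (0.0155) and Ccng1 (0.0188), Stat5b to Rab6a (0.0256) and Sprtn (0.0272), and Stat6 to Gphn (0.0115) and Mrpl42 (0.0118), which also did not pass the test. The points share libraries and treatment groups, so the measure is a description of these 6 libraries.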

How the data were processed

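The authors deposited, for each of the 6 libraries, raw read counts by gene. The libraries came from polyA RNA and were made by BGI, per the labels' protocols. Per the submitters' processing notes, STAR, without a version, HTSeq 0.6.0 and the build GRCm38 (mm10) were used. Annotation release, strand setting and multi-mapping treatment: not given in the sources used here.

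Of 39179 gene identifiers, 37693 matched GENCODE M21 (GRCm38), which gave symbols, coordinates and exon lengths. Counts were tested with edgeR 4.0.16 (R 4.3.3): filterByExpr (minimum count 10, minimum total 15) kept 14928 genes, all 6 Stat genes and 115 of 126 list genes among them. TMM factors scaled the libraries, a robust quasi-likelihood test compared DEL-1-Fc with Fc without a block, and Benjamini-Hochberg adjustment ran over all genes tested, and genes under 0.05 were called. The biological coefficient of variation common to all genes was 14.4%. Library sizes for CPM are scaled by TMM. An SE is the log2 fold change, without its sign, over the root of F, and 95% intervals use the fit's degrees of freedom (8.91). Shares and ratios used exact permutation tests over libraries. The code was tested on simulated data.

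The members and lists were chosen with earlier results of these data known. The text names the Stat genes, 12 further genes always named, up to 4 called genes per list with the smallest p, and the 2 nearest profiles of each Stat gene. Some genes of the family and of this rule are not reported here. Other genes, such as Foxp3, Ifit3, Rtp4, Ifnar1, Ifnar2 and Socs7, were named after their values were seen. Alternatives were DESeq2 1.42.0, limma-voom (limma 3.58.1), RLE or no scaling factors, no filter or 5 CPM in 3 libraries, no robust dispersion, a replicate block, and each library left out.

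Depth was 33364166 to 61967687 counts per library, so that 0 counts allow at most 3, or 0.0914 CPM in the shallowest library (counting error only). The chi-square over its degrees of freedom was 18.3 or more for every pair of replicates, so none is a copy of another. The labels give no sequencing batch or date.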

Additional observations from a re-analysis of the deposited data

How the results depend on the processing

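The falls of Stat2, Stat3, Stat4 and Stat5a were called under all 14 alternatives (DESeq2, limma-voom, RLE, library sizes alone, no filter, a 5 CPM filter, no robust dispersion, the replicate block and 6 omissions of a library), with log2 fold changes of -0.66 to -0.55, -0.46 to -0.41, -0.62 to -0.56 and -0.41 to -0.35. Stat5b ranged from -0.39 to -0.28 over all 14, and lost its call in the 3 omissions of an Fc library (-0.35 to -0.32), which left 4 of 5 calls. Stat6 was negative and not called in all 14 (-0.06 to -0.01). With 1 library left out, the genes called numbered 901 to 3003, of which 428 to 1485 were higher and 466 to 1518 lower; the highest counts came without DEL-1-Fc replicate 1 and the lowest without an Fc library (901, 970 and 963). DESeq2 called 2429. The median of all genes moved to 0.04 with library sizes alone.

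The replicate block gave 1510 calls against 1884 and changed no call among the Stat genes. The numbers were not taken as pairs, because deviations of same-numbered libraries correlated by only 0.03, 0.11 and 0.06. Still, all 3 were positive, and every library except DEL-1-Fc replicate 1 correlated best with its own number. That library correlated best with Fc replicate 3 (0.06). Correlations this small do not settle whether the numbers mark pairs. The paired exact test of the ratios gave p = 0.25 or 0.5, and 0.25 is the smallest 3 pairs allow.

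On the per-length scale the share differences were -1.24 points for Stat3, -1.77 for Stat4, 6.05 for Stat6 and -0.12 for Stat5b, which reversed. Without Stat3 and Stat5a in the total they were -4.34 for Stat2, -2.31 for Stat4, 7.39 for Stat6 and -0.74 for Stat5b, again reversed; a smaller total enlarges all shares. With 1 library left out the Stat5b difference was -0.13 to 0.36. The ratio of Stat3 to Stat2, in place of Stat5b, rose by 0.18, since Stat2 fell by more. Per kb of the longest transcript, the levels were 39.9 (Stat2), 68.5 (Stat3), 34.3 (Stat4), 82.0 (Stat5a) and 95.3 (Stat6), by a shorter length. Over pairs of a list gene and a setting, 1515 kept their side of the threshold, 64 lost a call and 24 gained one, and the nearest-profile genes lost a call in 7 pairs and kept their side in 161. None of these called genes changed sign. Depth does not limit the Stat genes, whose lowest count was 2664.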

Other observations

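The pseudogene Gm3940, which lies within Stat4 on the other strand and covers none of its exon bases, had 10, 7 and 65 counts in DEL-1-Fc and 4, 9 and 3 counts in Fc. The Stat4 value of DEL-1-Fc replicate 3, 85.2 CPM from 5052 counts, was the highest of its group. A link between it and the 65 counts of Gm3940 was not tested. These genes were chosen after their values were seen. Il17a, a STAT3 target too low to test, had its highest count in the same library, with 5, 6 and 21 counts in DEL-1-Fc and 5, 4 and 2 counts in Fc. Il23r, another low STAT3 target, had 1, 0 and 3 counts in DEL-1-Fc and 4, 3 and 8 counts in Fc.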
